A study of Homo sapiens with 8 samples.

Results

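The genes described here encode 10 cytosolic heat-shock proteins and their partners. HSPA1A, HSPA1B, HSPA8, HSPH1, DNAJB1, DNAJA1, HSP90AA1, HSP90AB1, HSPB1 and BAG3 were taken by gene symbol from a table of 61806 genes, and all 10 were among the 14893 genes expressed highly enough to be tested. mRNA was sequenced from N/TERT-1 cells, a single immortalized line of human epidermal keratinocytes with a wild-type genotype. The libraries were 4 labelled ethanol, the vehicle, and 4 labelled O/A, the mixture of oligomycin and antimycin A that blocks the mitochondrial ATP synthase and respiratory complex III and so depolarizes mitochondria, each with replicate numbers 1 to 4. Both groups were grown in the same serum-free keratinocyte medium and treated for 4 hours.

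Heat-shock proteins of the cytosol are chaperones. HSP70 proteins bind unfolded stretches of other proteins in a cycle driven by ATP, J-domain proteins deliver the clients and start ATP hydrolysis, and nucleotide exchange factors open the cycle again. HSP90 proteins act later, on clients that are nearly folded, and small heat-shock proteins hold unfolded chains without ATP. Many of these genes are switched on by the transcription factor HSF1, which binds heat shock elements, inverted repeats of the letters GAA, when unfolded proteins build up in the cytosol.

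After O/A treatment, 5 of the 10 genes were upregulated, 1 was downregulated and 4 were not called. A gene was called when its adjusted p in edgeR's quasi-likelihood test was at most 0.05 and its log2 fold change, log2(FC), was beyond 0.25 in either direction. Of all genes tested, 34.7% were called, 15.8% upward and 18.9% downward. The genes that rose were the stress-inducible HSP70 genes HSPA1A and HSPA1B, the inducible HSP90 gene HSP90AA1, the J-domain gene DNAJB1 and the exchange factor gene HSPH1, by 1.23- to 1.65-fold. BAG3, another exchange factor, fell to 0.63 times its level in ethanol. The constitutive HSP90 gene HSP90AB1 and the small heat-shock protein gene HSPB1 did not pass the test. The median log2(FC) of the 10 genes was 0.24, against -4e-04 for all genes tested.

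The changes were moderate in size among the genes called. The median absolute log2(FC) of all called genes was 0.51. HSPA1A and HSPA1B, at 0.72 and 0.67, and BAG3, at -0.66, were beyond it, and HSP90AA1, DNAJB1 and HSPH1 were within it. By log2(FC), HSPA1A had the rank 748 among rises of the 14893 genes tested and BAG3 the rank 1000 among falls.

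The promoters are shown for 6 of the genes. HSPA1A and HSPA1B are shown because they rose most, and BAG3 because it fell. HSPA8, HSP90AA1 and HSP90AB1 are shown as 3 of the 4 genes with a window that holds the longest heat shock element searched for. The sequences are from RefSeq on GRCh38.p14, run 5′ to 3′ on the strand of the gene, and cover 250 bases before to 50 bases after a transcription start. Capitals mark GAANNTTC or TTCNNGAA, a pair of inverted GAA units, searched on both strands, with overlapping matches joined. HSP90AA1 and HSP90AB1 also have windows at other starts, which hold no such pair and are not shown. The windows are chr6:31815293-31815592 (plus strand) for HSPA1A, chr6:31827488-31827787 (plus) for HSPA1B, chr11:123062087-123062386 (minus) for HSPA8, chr14:102086995-102087294 (minus) for HSP90AA1, chr6:44247693-44247992 (plus) for HSP90AB1 and chr10:119651130-119651429 (plus) for BAG3.
HSPA1A: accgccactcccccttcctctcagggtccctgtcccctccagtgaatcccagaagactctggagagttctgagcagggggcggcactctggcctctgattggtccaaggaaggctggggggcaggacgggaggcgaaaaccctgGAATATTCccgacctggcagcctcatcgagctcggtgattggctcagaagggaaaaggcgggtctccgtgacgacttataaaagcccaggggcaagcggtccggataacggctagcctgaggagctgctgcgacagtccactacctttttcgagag
HSPA1B: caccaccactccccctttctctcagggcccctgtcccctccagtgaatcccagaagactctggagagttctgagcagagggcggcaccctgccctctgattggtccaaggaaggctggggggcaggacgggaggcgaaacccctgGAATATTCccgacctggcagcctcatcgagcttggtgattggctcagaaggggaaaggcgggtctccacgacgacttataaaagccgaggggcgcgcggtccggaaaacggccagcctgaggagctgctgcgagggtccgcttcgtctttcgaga
HSPA8: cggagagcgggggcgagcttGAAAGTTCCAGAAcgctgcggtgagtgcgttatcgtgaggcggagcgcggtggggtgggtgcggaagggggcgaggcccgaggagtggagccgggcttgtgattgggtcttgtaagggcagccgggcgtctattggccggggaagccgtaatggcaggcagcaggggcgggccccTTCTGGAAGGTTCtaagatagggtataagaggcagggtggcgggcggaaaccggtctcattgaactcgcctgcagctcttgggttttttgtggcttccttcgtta
HSP90AA1: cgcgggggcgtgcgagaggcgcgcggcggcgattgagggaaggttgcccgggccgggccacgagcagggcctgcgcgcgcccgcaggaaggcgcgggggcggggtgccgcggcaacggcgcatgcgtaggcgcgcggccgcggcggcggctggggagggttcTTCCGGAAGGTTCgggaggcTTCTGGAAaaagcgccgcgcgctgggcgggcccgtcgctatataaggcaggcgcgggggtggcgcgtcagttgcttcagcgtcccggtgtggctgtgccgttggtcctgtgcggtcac
HSP90AB1: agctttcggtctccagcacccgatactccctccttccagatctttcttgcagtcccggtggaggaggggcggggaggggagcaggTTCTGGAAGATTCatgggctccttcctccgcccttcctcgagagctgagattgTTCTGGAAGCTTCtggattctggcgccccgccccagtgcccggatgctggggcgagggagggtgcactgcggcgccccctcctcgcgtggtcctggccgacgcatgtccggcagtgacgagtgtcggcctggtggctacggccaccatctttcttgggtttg
BAG3: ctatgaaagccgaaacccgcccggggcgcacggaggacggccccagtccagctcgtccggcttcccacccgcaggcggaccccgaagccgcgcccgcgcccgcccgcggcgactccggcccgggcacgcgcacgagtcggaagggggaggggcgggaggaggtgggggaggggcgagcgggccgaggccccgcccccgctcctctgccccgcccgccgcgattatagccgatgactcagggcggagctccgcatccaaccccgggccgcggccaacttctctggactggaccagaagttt

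All 10 genes matched RefSeq by symbol, with 15 windows between them. A pair of inverted units was found in the windows of 8 of the 10 genes, against 16.2% of 27305 genes with a window. A run of 3 such units in alternating orientation, each separated by NN, which contains the shorter motif, was found for HSPA8, DNAJA1, HSP90AA1 and HSP90AB1, against 0.608% of all genes. Counted by window, the shorter motif was in 9 of the 15, against 13.5% of 35116 windows, and the longer was in 4, against 0.49%. The 10 genes were chosen as chaperones and co-chaperones driven by HSF1, so an excess of its element follows from the choice. HSPH1 and BAG3 held neither motif in their windows, which says only that these letters are not in these bases. Genes with the longer motif in a window, though not in all of their windows, included HSP90AA1, which rose, and HSP90AB1, which did not pass the test. The HSPA1A and HSPA1B windows aligned with 277 of 300 bases identical, or 92.3%.

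**Figure D1:**
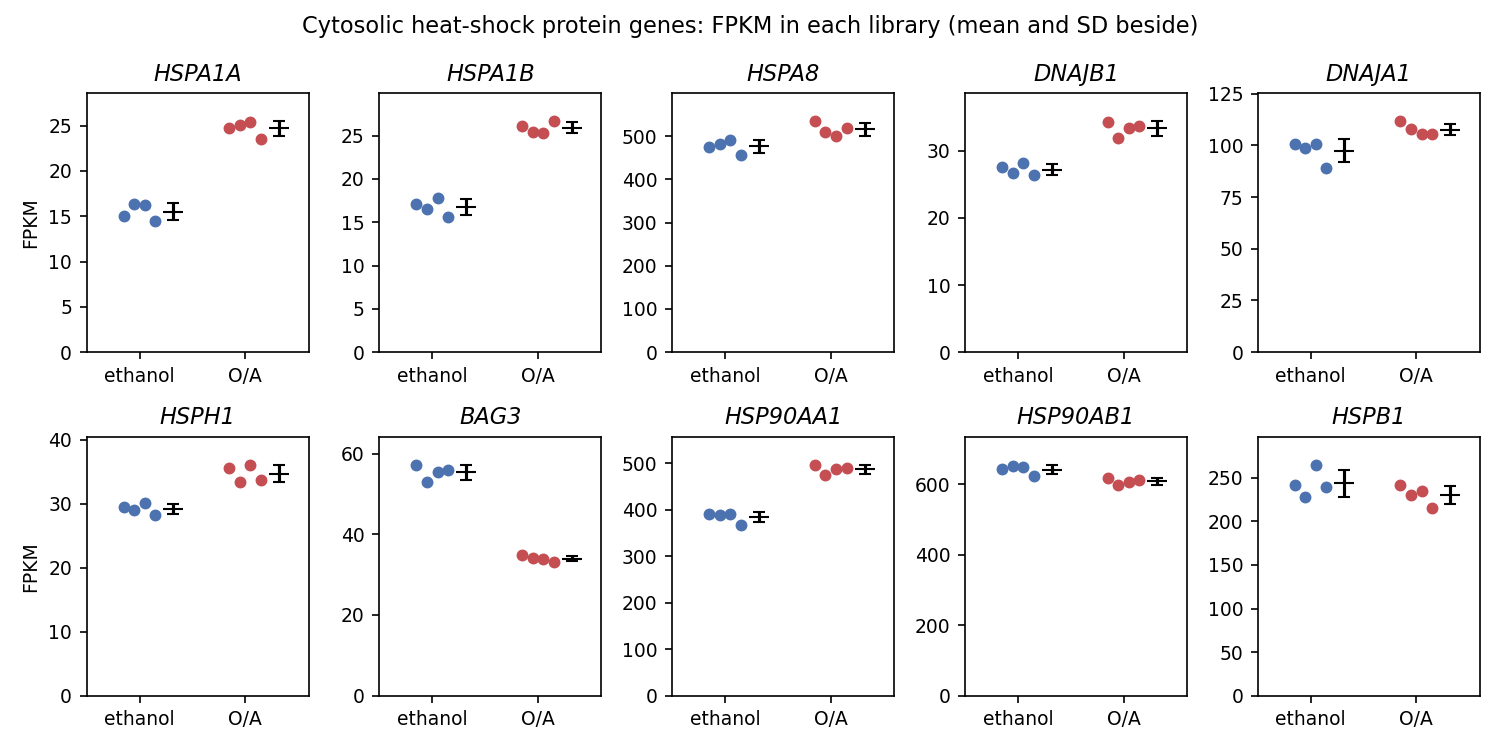
FPKM of the 10 cytosolic heat-shock protein genes in each of 4 ethanol (blue) and 4 O/A (red) libraries; each point is a library, the bars beside the points are the mean and SD (n = 4), and every axis starts at 0. HSPA1A and HSPA1B lie between 14.4 and 17.8 FPKM in ethanol and between 23.6 and 26.7 in O/A, and BAG3 falls from 55.4 to 34.0 FPKM.

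Levels are given in FPKM, fragments per kilobase of exons scaled to the library total, and each gene's position is in GRCh38. HSPA1A (chr6:31815543-31817946, plus strand, 1 exon) encodes the stress-inducible HSP70. It had 15, 16.4, 16.2 and 14.4 FPKM in ethanol replicates 1 to 4 and 24.8, 25.1, 25.4 and 23.6 FPKM in O/A replicates 1 to 4. All 4 O/A libraries were above all 4 ethanol libraries, and the means were 15.5 ± 0.945 and 24.7 ± 0.796 FPKM (SD, n = 4). The log2(FC) was 0.72 with a standard error of 0.0455, a rise of 1.65-fold, with an adjusted p of 2.53e-19 in edgeR's quasi-likelihood test.

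HSPA1B (chr6:31827738-31830254, plus strand, 1 exon) encodes nearly the same protein from a neighbouring gene. Its levels were 17.1, 16.6, 17.8 and 15.6 FPKM in ethanol and 26.1, 25.4, 25.3 and 26.6 FPKM in O/A. Every O/A library was again above every ethanol library. The log2(FC) was 0.67 (SE 0.0434), with an adjusted p of 4.96e-19 in edgeR's quasi-likelihood test. The coding sequences of HSPA1A and HSPA1B are both 1926 bases long and differ at 4 bases, and 69.6% of 150-base stretches of the HSPA1A transcript occur unchanged in HSPA1B. How reads from shared stretches were counted or divided between them is uncertain, so the levels of both genes may be too low. With their counts summed to 1 gene the pair still rose.

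HSPA8 (chr11:123057489-123063230, minus strand, 9 exons) encodes HSC70, the HSP70 made in unstressed cells. It had 476, 482, 492 and 456 FPKM in ethanol and 535, 509.7, 501 and 519 FPKM in O/A. The O/A libraries were all above the ethanol libraries, but the shift was small against its level. The log2(FC) was 0.16 (SE 0.0253), which passed edgeR's quasi-likelihood test with an adjusted p of 3.38e-07 but was within 0.25, so HSPA8 was not called.

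Set against each other within a library, the inducible HSP70 genes gained on HSPA8. The summed counts of HSPA1A and HSPA1B were 0.0343, 0.0346, 0.0351 and 0.0334 times those of HSPA8 in ethanol, and 0.0483, 0.0502, 0.0513 and 0.0492 times in O/A. The 2 groups did not overlap, and the log2 ratio differed by 0.53, or 1.45-fold. The exact two-sided permutation test gave p = 0.0286, the smallest that 4 libraries against 4 allow, and 0.0286 after adjustment over the 3 ratios compared.

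DNAJB1 (chr19:14514769-14560391, minus strand) encodes HSP40, the J-domain protein that works with inducible HSP70. Its levels were 27.6, 26.8, 28.1 and 26.4 FPKM in ethanol and 34.4, 31.9, 33.4 and 33.8 FPKM in O/A. No O/A library was as low as any ethanol library, and the log2(FC) was 0.34 (SE 0.0284), with an adjusted p of 7.44e-15 in edgeR's quasi-likelihood test. The annotated gene overlaps TECR on the other strand over 43307 bases, and TECR itself had 1099 to 1415 counts in a library. Whether strand was used in counting is not given in the sources used here.

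DNAJA1 (chr9:33025273-33039907, plus strand), which encodes a J-domain protein of type A, moved less. It had 101, 98.6, 101 and 89.3 FPKM in ethanol, where replicate 4 was lowest, and 112, 108, 106 and 106 FPKM in O/A. The groups did not overlap. Its log2(FC) of 0.19 (SE 0.0314) passed edgeR's quasi-likelihood test with an adjusted p of 2.85e-06 and was within 0.25, so it was not called. The ratio of DNAJB1 to DNAJA1 counts ran from 0.833 to 0.907 in ethanol and from 0.907 to 0.981 in O/A. The lowest O/A ratio, in replicate 2, was barely above the highest ethanol ratio, in replicate 4. The log2 ratio rose by 0.15 (exact permutation p = 0.0286, and 0.0286 adjusted over the 3 ratios).

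HSPH1 and BAG3, both nucleotide exchange factors of HSP70, went in opposite directions. HSPH1 (chr13:31134973-31162388, minus strand, 18 exons) encodes HSP110, which also helps HSP70 to loosen aggregates. It had 29.5, 29, 30.2 and 28.3 FPKM in ethanol and 35.5, 33.5, 36.1 and 33.8 FPKM in O/A, with every O/A library above every ethanol library. Its log2(FC) was 0.29 (SE 0.0284), with an adjusted p of 8.93e-13 in edgeR's quasi-likelihood test. It stood close to the fold threshold: in limma on log2(FPKM + 0.1) and log2(FPKM + 1) the log2(FC) was 0.25 and 0.24, under the threshold, and HSPH1 was not called.

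BAG3 (chr10:119651380-119677819, plus strand, 4 exons) encodes a scaffold that links HSP70 to small heat-shock proteins and to selective autophagy. Its levels were 57.2, 52.9, 55.5 and 56 FPKM in ethanol and 34.9, 34, 33.8 and 33.2 FPKM in O/A. All O/A libraries were far below all ethanol libraries, with means of 55.4 ± 1.85 and 34 ± 0.696 FPKM (SD, n = 4). The log2(FC) was -0.66 (SE 0.0323), with an adjusted p of 9.52e-24 in edgeR's quasi-likelihood test, and BAG3 was the only member called downregulated.

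HSP90AA1 (chr14:102080742-102139699, minus strand, 11 exons), the inducible HSP90 gene, had 389.8, 388, 391 and 368 FPKM in ethanol and 497, 474, 487 and 489.6 FPKM in O/A. The groups were well apart. The means were 384 ± 10.8 and 487 ± 9.6 FPKM (SD, n = 4), the log2(FC) was 0.39 (SE 0.0248), and the adjusted p was 4.18e-19 in edgeR's quasi-likelihood test. Of the genes that rose it was by far the most abundant. Genes named as its pseudogenes held reads equal to 1.16% to 1.34% of its own.

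HSP90AB1 (chr6:44246166-44253888, plus strand, 12 exons), the constitutive HSP90 gene, had 643, 653, 649 and 622 FPKM in ethanol and 619, 597, 607 and 611 FPKM in O/A. In FPKM the O/A libraries were all below the ethanol libraries, whereas on the TMM scale, which corrects for library composition, the groups overlapped. The log2(FC) was -0.03, with a 95% interval of -0.080 to 0.017 and an adjusted p of 0.284 in edgeR's quasi-likelihood test. On log2(FPKM + 0.1), where the median of all genes shifts by -0.045, limma gave -0.08 with an adjusted p of 0.0119, and adjusted p ranged from 0.0119 to 0.768 over 16 alternatives. A fall larger than 0.08 was outside the edgeR interval.

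**Figure D2:**
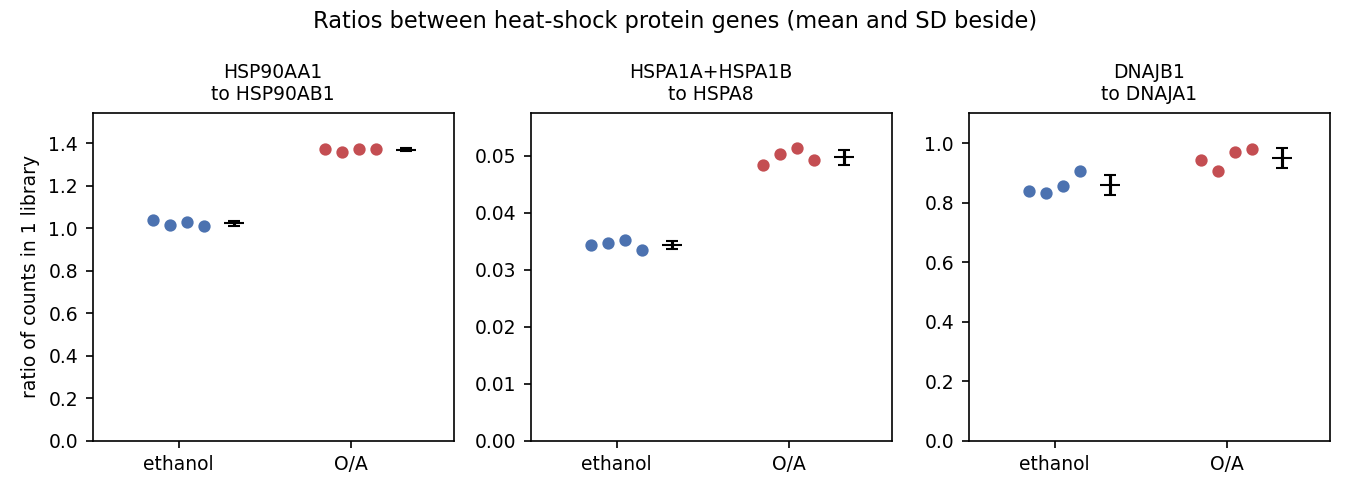
Ratios of counts of member genes within each library, for HSP90AA1 to HSP90AB1, HSPA1A plus HSPA1B to HSPA8 and DNAJB1 to DNAJA1, in 4 ethanol (blue) and 4 O/A (red) libraries; each point is a library, the bars beside the points are the mean and SD (n = 4), and every axis starts at 0. The HSP90 ratio lies between 1.01 and 1.04 in ethanol and between 1.36 and 1.37 in O/A.

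The balance of the HSP90 genes shifted toward HSP90AA1. The counts of HSP90AA1 were 1.04, 1.02, 1.03 and 1.01 times those of HSP90AB1 in ethanol and 1.37, 1.36, 1.37 and 1.37 times in O/A. The spread within each group was small beside the gap between them. The log2 ratio differed by 0.42, or 1.34-fold (exact two-sided permutation p = 0.0286, and 0.0286 adjusted over the 3 ratios). These ratios are of counts, not corrected for gene length, which is the same in every library.

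HSPB1 (chr7:76302673-76304295, plus strand, 3 exons), which encodes the small heat-shock protein HSP27, had 242, 228, 265 and 239 FPKM in ethanol and 241, 229.9, 235 and 216 FPKM in O/A. The groups overlapped, and the highest value was in ethanol replicate 3. The log2(FC) was -0.03 (95% interval -0.13 to 0.059), with an adjusted p of 0.539 in edgeR's quasi-likelihood test. Without ethanol replicate 3 it was 0.01, so no direction can be given.

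**Figure D3:**
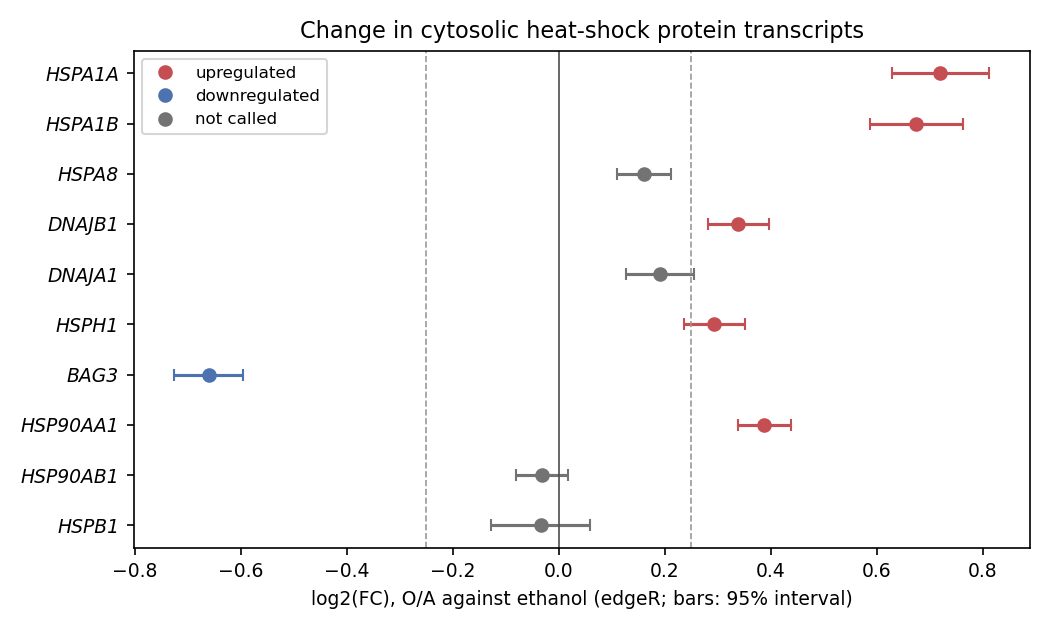
log2(FC) of each member in O/A against ethanol from edgeR, with 95% intervals; dashed lines mark the threshold of 0.25 in either direction. The intervals of HSPA1A, HSPA1B, HSP90AA1, DNAJB1, HSPH1 and BAG3 exclude 0 and their estimates lie beyond the threshold, those of HSPA8 and DNAJA1 exclude 0 with estimates within it, and those of HSP90AB1 and HSPB1 include 0.

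In all, 8 of the 10 genes passed the adjusted p alone, against 53.7% of all genes tested. On the TMM scale, for 7 genes every O/A library was above every ethanol library and for BAG3 every one was below, so that 8 of 10 did not overlap, against 47.6% of all genes tested on that scale. On the TMM scale the exact permutation test gave p = 0.0286, its smallest value, for each of these 8 genes. Groups that do not overlap always give this p, so the test adds nothing to the separation. The permutation test gave p = 0.171 for HSP90AB1 and 0.571 for HSPB1. The members took up 0.725% to 0.773% of the counts of a library in ethanol and 0.808% to 0.846% in O/A. Libraries were drawn from bulk cultures, where fewer cells of a type and less RNA per cell cannot be told apart.

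Among the members, levels covered a wide range. In ethanol the order in FPKM was HSP90AB1, HSPA8, HSP90AA1, HSPB1, DNAJA1, BAG3, HSPH1, DNAJB1, HSPA1B and HSPA1A, and only HSPA1B and HSPA1A, the lowest, overlapped as neighbours. In O/A, HSPH1 moved above BAG3, although the libraries of HSPH1 and BAG3, of BAG3 and DNAJB1, and of HSPA1B and HSPA1A overlapped. This order depends on the length by which counts were divided, because the deposited exonic length joins all annotated exons of a gene. For DNAJB1 it was 8188 bases, against 2242 for the canonical transcript, and for HSPA8 4849 against 2264. Per kilobase of the canonical transcript, a choice made after the values were seen, HSPA8 was highest in ethanol at 1021, above HSP90AB1 at 748, and DNAJB1 stood at 99.4 rather than 27.2. On that scale HSP90AA1, at 769, was above HSP90AB1, at 709.5, in O/A, while HSPA1A and HSPA1B stayed the lowest in both groups. Reads from the stretches that HSPA1A and HSPA1B share may not all have been counted, so their place as lowest is uncertain. Fold changes of a gene between groups are not touched by its length.

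The spread between replicates was low. On the TMM scale the coefficient of variation was 2.01% to 6.04% in ethanol and 1.67% to 4.65% in O/A, highest for HSPB1 in ethanol. Ethanol replicate 4 had the lowest ethanol value for 8 of the 10 genes, all but HSPB1 and BAG3. The 6 called members remained called without it and without each other library in turn, with log2(FC) from 0.69 to 0.75 for HSPA1A, from 0.28 to 0.32 for HSPH1 and from -0.68 to -0.64 for BAG3.

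Other genes of the chaperone network were taken as 8 lists of 68 genes, of which 60 were tested. Of these, 9 were upregulated and 6 downregulated, so that 25% were called, against 34.7% of all genes tested. The median log2(FC) of the 60 genes was 0.01. Of all genes tested, 15.8% were called upward and 18.9% downward, and these shares also stand beside the list counts below. No heat shock factor was called. HSF1, the main factor of the response, had 14.2 ± 0.221 FPKM in ethanol and 14.7 ± 0.0683 in O/A (SD, n = 4), a log2(FC) of 0.09 with an adjusted p of 0.0347 in edgeR's quasi-likelihood test. HSBP1, which binds HSF1, had a log2(FC) of 0.10, HSF2 of -0.01 and HSF4 of -0.08, and HSF5 was too low to be tested.

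**Figure D4:**
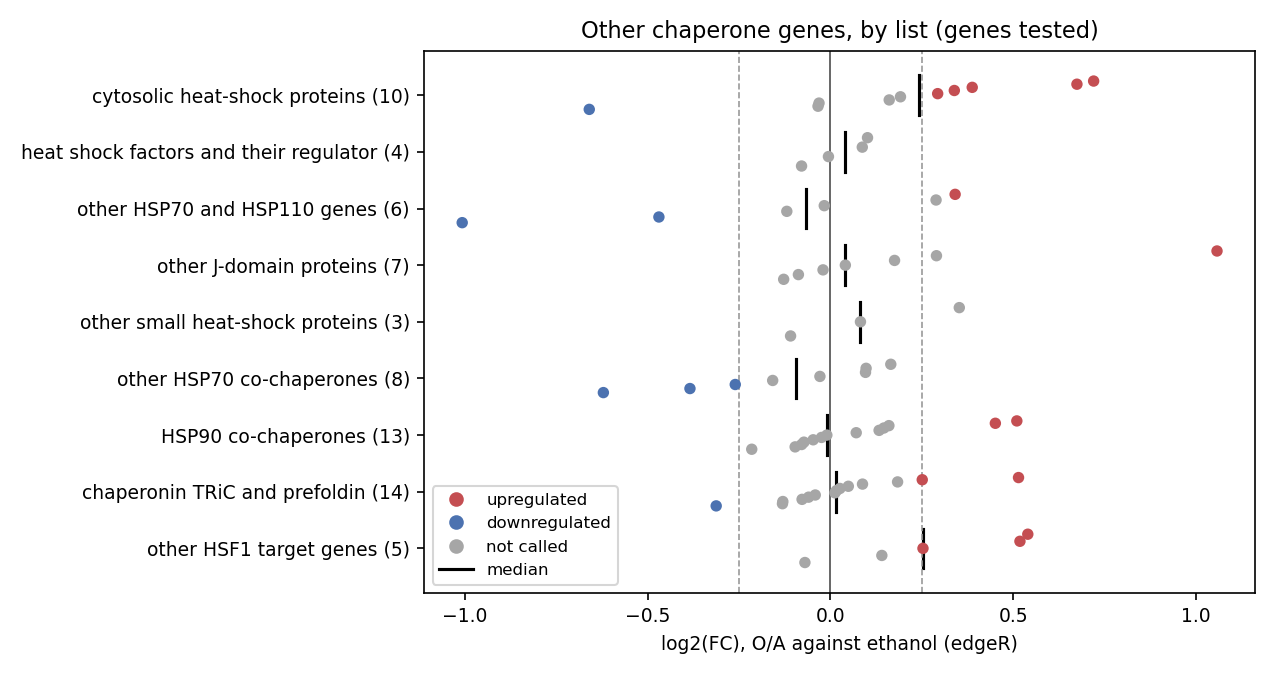
log2(FC) in O/A against ethanol from edgeR for the members and for 8 other lists of chaperone genes; each point is a gene, red upregulated, blue downregulated and grey not called, the black bar is the median of the list and the number of genes tested stands after its name. The members' median of 0.24 and that of the other HSF1 target genes, 0.25, lie to the right of 0, and the other medians lie between -0.09 and 0.08.

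Among the 6 tested genes of the other HSP70 and HSP110 list, 1 rose and 2 fell. HSPA4L, of the HSP110 family, rose by 0.34 on the log2 scale, HSPA14 changed by -0.47 and HSPA1L, which starts 259 bases from HSPA1A on the other strand, by -1.01, from 18 to 22 counts to 6 to 15 counts (adjusted p 1.44e-11, 3.77e-09 and 0.00397 in edgeR's quasi-likelihood test). HSPA6, a strictly inducible HSP70, was low, at 16 to 45 counts, and did not pass the test, with a log2(FC) of 0.29. Of 7 other J-domain genes, DNAJA4 alone was called, with a log2(FC) of 1.06 (SE 0.110, adjusted p 8.55e-12 in edgeR's quasi-likelihood test), from 0.675 ± 0.0768 to 1.36 ± 0.102 FPKM (SD, n = 4).

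The fall of BAG3 stood beside falls of other BAG family genes. Of 8 other HSP70 co-chaperone genes, 0 rose and 3 fell, which were BAG2 at -0.62, BAG4 at -0.38 and BAG1 at -0.26 (adjusted p 2.59e-08, 1.14e-07 and 6.85e-06 in edgeR's quasi-likelihood test). BAG1 was under the fold threshold without ethanol replicate 2 (-0.25), O/A replicate 1 (-0.247) or O/A replicate 2 (-0.209), which left 2 of the list called. BAG5, at -0.16, and BAG6, at 0.10, were not called. Of 13 HSP90 co-chaperone genes, 2 rose, CDC37L1 by 0.51 and CHORDC1 by 0.45 on the log2 scale (adjusted p 2.12e-11 and 2.75e-14 in edgeR's quasi-likelihood test), and none fell. Of 14 genes of the chaperonin TRiC and of prefoldin, which fold actin and tubulin, PFDN2 rose by 0.51 and PFDN4 by 0.25, and PFDN5 changed by -0.31, of which PFDN4 and PFDN5 lost the call under several alternatives. Of 3 other small heat-shock protein genes tested, none was called.

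Of 5 other known targets of HSF1, 3 rose and none fell. Like the other lists, this list was chosen with earlier results of these data known, so its count is not independent of them. UBB, which encodes polyubiquitin, rose by 0.54 on the log2 scale (adjusted p 6.70e-23 in edgeR's quasi-likelihood test). SERPINH1, a collagen chaperone of the endoplasmic reticulum, rose by 0.25, at the edge of the threshold. HSPD1 and HSPE1, the mitochondrial chaperonin genes, had log2(FC) of 0.14 and -0.07 and were not called. The annotated HSPE1 lies within HSPD1 on the other strand, and whether strand was used in counting is not given. BAG1 and SERPINH1 were named after their values were seen.

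The keratinocyte label was checked on marker genes. KRT5 had a mean of 1433 FPKM in ethanol and 1128 in O/A and was downregulated, with a log2(FC) of -0.30 and an adjusted p of 9.47e-15 in edgeR's quasi-likelihood test. KRT14, TP63 and ITGA6 were present and not called, with log2(FC) of -0.09, -0.05 and 0.14, and all O/A libraries were above all ethanol libraries for ITGA6. The summed FPKM of the 4 keratinocyte markers, mostly KRT5 and KRT14, was 2578 to 2837 in ethanol and 2206 to 2357 in O/A, and its part in the results above was not tested. Of the melanocyte genes, MLANA and TYR were at 0 in every library and PMEL had 17 to 45 counts. Of the fibroblast genes, COL1A2 and DCN had at most 2 counts and COL1A1 had 376 to 557, and the leukocyte genes PTPRC and CD74 had at most 2. COL1A1 and PMEL did not pass the test. Total counts per library were 17210404 to 20999927, and libraries of the same group differed by more than sampling noise. The labels call the replicates biological, and the study's methods describe them as independent experiments on this cell line.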

How the data were processed

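Total RNA of 8 N/TERT-1 libraries was made into mRNA libraries, and the groups and replicate numbers were taken from the labels. The deposited counts were made by the authors with HISAT2 2.0.1 and HTSeq 0.6.1 (versions from the submitters' processing notes) on GRCh38.p13, and are not normalized. The Ensembl release and the strand setting are not given in the sources used here. The deposited FPKM values came from those counts, each within 0.005 of the count divided by exonic length and library total. The authors' table of their own DESeq2 comparison (log2 fold change, standard error, p-values) was not used.

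Counts were tested with edgeR 4.0.16 in R 4.3.3 (TMM scaling, robust quasi-likelihood test, at least 10 counts in at least 4 libraries, Benjamini-Hochberg adjustment over 14893 genes) and with exact permutation tests over libraries. Total counts were 17210404 to 20999927 per library. In simulated data, edgeR recovered 70 of 93 genes changed by 0.5 on the log2 scale and 99 of 107 changed by 1. It made 3 false calls. Only these genes of the 14893 were changed in the simulation, whereas 34.7% of genes were called in the data. Recovery and false calls in the data may therefore differ. Smaller changes, such as those of HSPH1, DNAJB1 and HSP90AA1, were not simulated. All members are named, with all heat shock factors and up to 2 rises and 2 falls of each other list, except a gene that is counted in its list but not reported here by name. The members and lists were chosen with earlier results of these data known. Alternatives were DESeq2 1.42.0, limma 3.58.1 on log2(FPKM + 0.1) and log2(FPKM + 1), median-ratio scaling, other filters and thresholds, summed paralogs, the replicate number as a block and each library left out. Symbols absent from the table were filled from GENCODE for 688 of 20417 genes. The labels state neither doses nor time of treatment; the time is from a figure legend of the study.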

Additional observations from a re-analysis of the deposited data

Results flagged for a closer look

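Dixon's test at 95% was run on 64 groups of 4 libraries. These were the members, the called genes of the other lists, HSBP1, the tested heat shock factors and the ratios of counts, in each treatment. In 8 of the 64 groups the library at an end of the range stood apart from the rest, where chance gives about 1 in 20, or 3.2. Values here are TMM-scaled CPM (counts scaled to the library total). For the member HSP90AA1, ethanol replicate 4 was low at 1852, against 1949 to 1967 in the other ethanol libraries, and the log2(FC) of HSP90AA1 was 0.38 to 0.41 with any library left out. No other member and no ratio had such a library.

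Ethanol replicate 4 was also high for HSF4, at 3.76 against 2.69 to 2.80. Ethanol replicate 1 was high for HSPA14, at 27.5 against 25.2 to 25.4, and for BAG4, at 34.5 against 29.5 to 30.3, and ethanol replicate 2 was high for HSPA1L, at 1.18 against 1.02 to 1.03. In O/A, replicate 3 was high for CDC37L1, at 38.2 against 33.8 to 34.3, replicate 1 for PFDN2, at 79.3 against 75.5 to 75.8, and replicate 4 for PFDN4, at 42.2 against 39.9.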

How the results depend on the processing

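The 6 called members kept their call and direction under either filter, with DESeq2 or median-ratio scaling, and with each library left out; HSPH1 lost its call on FPKM (0.25 and 0.24), which left 5, and with HSPA1A and HSPA1B summed 5 of 9 were called. Without a fold threshold 8 members were called, and beyond a log2(FC) of 1 the count was 0. HSPB1 turned to 0.012 without ethanol replicate 3, in a range of -0.0584 to 0.012. HSF2 turned to 0.000515 with DESeq2 and to 0.00177 with median-ratio scaling, in a range of -0.0569 to 0.0407 with a library left out, and HSF4 ranged from -0.24 to 0.0664.

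Of all genes, 5165 were called, 2183 at a mean FPKM of at least 5, 7999 without a fold threshold, 797 beyond a log2(FC) of 1 and 4945 to 5071 with a library left out. At a mean FPKM of at least 5, the calls were 0 for J-domain genes and 1 for TRiC and prefoldin, and on log2(FPKM + 1) 1 for TRiC and prefoldin. Without a fold threshold they were 2 for heat shock factors, 3 for J-domain genes, 6 for HSP70 co-chaperones, 7 for HSP90 co-chaperones and 8 for TRiC and prefoldin. Beyond a log2(FC) of 1 they were 1 for other HSP70 and HSP110 genes and 0 for HSP70 co-chaperones, HSP90 co-chaperones, TRiC and prefoldin and other HSF1 targets. With a library left out they ranged from 1 to 2 for J-domain genes (2 without O/A replicate 4) and from 1 to 3 for TRiC and prefoldin (1 without ethanol replicate 4). The call was lost under 7 of 15 alternatives for PFDN4, 6 of 15 for SERPINH1, 5 of 14 for PFDN5 and 3 of 15 for BAG1. HSPA1L lost its call under 1 of 14, limma on log2(FPKM + 1), where its log2(FC) was -0.235. The causes were not tested.

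The replicate numbers gave no clear pairing of the libraries: deviations of same-numbered libraries correlated at -0.03 to 0.08, and 2 of 4 numbers matched best with their own. These values cannot show whether same-numbered libraries came from the same experiment, so results with and without pairing are given. In the fit with a replicate block, 5160 genes and the same 6 members were called, and an exact sign-flip permutation test of 4 pairs gave p = 0.125, its smallest value, for the log2 ratios of HSP90AA1 to HSP90AB1 (0.42), HSPA1A plus HSPA1B to HSPA8 (0.53) and DNAJB1 to DNAJA1 (0.15). With a library left out, the DNAJB1 to DNAJA1 ratio was 0.13 to 0.17 (exact permutation p 0.0286 to 0.0571).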
